A study of Mus musculus with 38 samples.

Results

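The triadimefon response of mouse liver was compared between day 30 and day 4 of feeding, to see which early changes faded, held or grew. The comparison used 12 of the 38 arrays of the study, chosen by their labels: triadimefon on day 4, triadimefon on day 30 and the control feed group of the conazole experiment on each of those days, with 3 arrays in each of the 4 groups. All arrays held RNA of whole liver, from males of the outbred CD-1 strain, listed as 6 to 8 weeks old. Treated mice ate triadimefon, spelled tridimefon in the labels, at 1800 ppm in the feed for 4 or 30 days, which gave a mean intake of 257.1 ± 33.5 mg/kg/day. That intake is stated for the compound and not for each time, and what the error stands for is not stated. Control mice ate control feed for the same 4 or 30 days. Nothing in the labels says that an array held RNA of more than 1 mouse, and the arrays of a group are labelled as biological replicates. In whole liver, fewer cells of a type and less RNA per cell cannot be told apart.

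Triadimefon is a triazole conazole, a fungicide made to block the fungal sterol 14-alpha-demethylase, and mammals carry the same enzyme as Cyp51 in the cholesterol pathway. In liver, conazoles are also known to act on the nuclear receptors CAR and PXR, which switch on CYP2B, CYP2C and CYP3A monooxygenases, glutathione S-transferases, glucuronosyltransferases and export pumps. Cholesterol synthesis is under feedback: when sterols in the cell are low, the transcription factor SREBP2 is released and raises the genes of the pathway. Each cytochrome P450 also needs heme, whose first and rate-limiting step in liver is made by Alas1.

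Values are log2(intensity + 16) after quantile scaling of all 38 arrays, with intensities below 0 set to 0, so that the lowest possible value is 4. Background was taken as 6.13, below which 95% of 39 olfactory receptor genes, which liver is not known to use, had their means. For each gene, the change on a day is the triadimefon mean minus the control mean of that day, and the shift is the change on day 30 minus the change on day 4. The shift was tested with limma over 17728 genes, of which 9313 had a mean above background, and a gene was called at an adjusted p (Benjamini-Hochberg) under 0.05.

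The 12 arrays had median deposited intensities of 20.4 to 33.8 and highest intensities of 9267 to 11269. The mean of an array's correlations with the other arrays of its group was 0.954 to 0.966. The control probe sets for actin read higher at the 3′ end than at the 5′ end on every array, and by more on day 4. That log2 excess was 1.07 on average in day 4 controls (0.80 to 1.30) and 0.86 in day 4 triadimefon livers (0.76 to 0.94). On day 30 it was 0.37 on all 3 control arrays and 0.42 to 0.47 with triadimefon. For the Gapdh control probe sets the same excess was 0.04 to 0.22 in day 4 controls and -0.10 to 0.01 in day 4 triadimefon livers. On day 30 the Gapdh excess was -0.09 to 0.00 in controls and -0.12 to -0.10 with triadimefon. The part of these RNA measures in the shifts was not tested. Day of feeding cannot be told apart from anything else that differed between the day 4 and the day 30 arrays. Hepatocyte markers lay at a mean of 12.8 to 13.03 on all 12 arrays.

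The triadimefon change differed between the days in 232 of 17728 genes, 1.31% of those tested, with 87 genes shifted up and 145 shifted down. At an unadjusted p under 0.05 by limma there were 2487 for the shift, 3226 on day 4, 3389 on day 30 and 3474 between days in the controls. Each is out of 17728 genes, and the unadjusted counts of the gene lists are to be read beside them. On day 4 itself 665 genes had changed, 3.75% of those tested, 373 higher and 292 lower. By day 30 this was 958 genes, 5.4% of those tested, 427 higher and 531 lower. The split of the called shifts depended on scaling: with the deposited values 44 were up and 399 down, where the median shift of all genes was -0.19, and with median centring 45 were up and 131 down. The call also rested on the spread shared by all 38 arrays, and so did the SEs and intervals. In genes with a mean above background, the median variance within these 4 groups was 0.99 times that of all 38 arrays. It was 2.07 times that of the phenobarbital experiment. In the called genes it was 1.34 times that of all 38, so for most of them the shared spread is narrower than that of these arrays. A fit of these 12 arrays alone called 11 genes, and a fit of the 18 arrays of the conazole experiment called 1. The shift of a gene has the same value in these fits, which use the same group means, so its sign could not change. Without the second propiconazole array of day 4, which correlated poorly with its group, the count was 608.

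Few genes were called on both days, and few had a called difference between them: 83 of the 665 day 4 genes and 123 of the 958 day 30 genes had a called shift. Of the 665 genes, 106 (15.9%) were called in the same direction on day 30, 8 were called in the opposite direction, and 473 (71.1%) had the same sign, beside 55.3% of all genes. Their median size was 0.85 on day 4, and their median change in that direction was 0.18 on day 30. The day 30 genes gave a like picture in reverse. The same 106 genes were 11.1% of the 958, 69.7% had the same sign on day 4, and the median fell from 0.79 on day 30 to 0.16 on day 4. These genes were chosen by their call on 1 day, which favours a larger size on that day.

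The 232 genes were sorted by which day carried the change. A gene was said to have faded when it was called on day 4 and its change was smaller on day 30, and to have grown when it was called on day 30 with the larger change there. By this rule 74 genes faded (42 from a rise and 32 from a fall), 115 grew (40 to a rise and 75 to a fall), 8 were called on both days in opposite directions, and 35 were called on neither day. Another 73 genes were called on both days in 1 direction, with a 95% interval of the shift within 2-fold either way, 47 higher and 26 lower, and are described as held. A further 32, 21 higher and 11 lower, were called on both days with an interval too wide for that. With the deposited values or with median centring, 3 genes in place of 26 were held at a lower level.

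**Figure D1:**
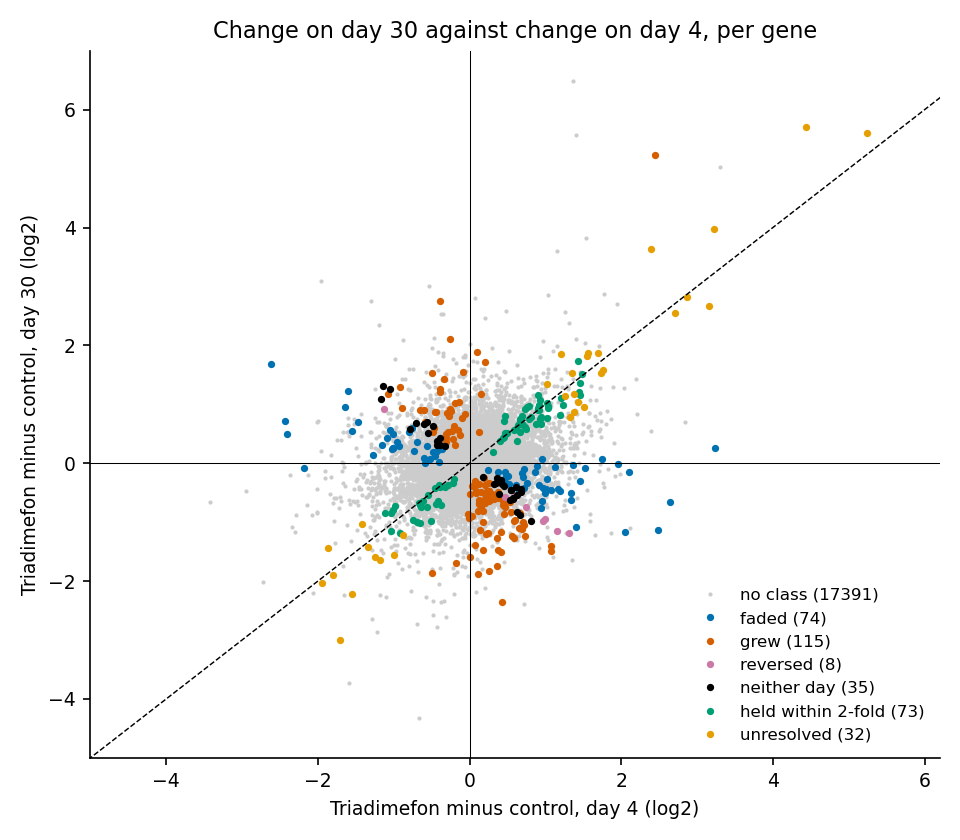
Triadimefon minus control on day 4 (horizontal axis) and on day 30 (vertical axis), in log2, with 1 point per gene for 17728 genes. Coloured points are the 74 faded, 115 grown, 8 reversed, 35 neither-day, 73 held and 32 unresolved genes, and the dashed line marks equal change on both days. Grown genes lie along the vertical axis, faded genes along the horizontal axis, and held genes along the dashed line.

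A shift can come from the control livers as well as from the treated ones. Between day 4 and day 30, 943 genes differed in the conazole controls, 5.32% of those tested, and 1082 in the triadimefon livers, 6.1% of those tested. Among the 232 shifted genes, only the controls differed between days in 96, only the treated livers in 111, both in 5 and neither in 20. The larger movement was in the controls in 45 of the 74 faded genes and in 43 of the 115 grown genes. In the phenobarbital experiment, where each group had 5 arrays, the control livers differed between days in 0 genes by the same limma fit (0% of those tested), with 668 at an unadjusted p under 0.05.

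Cholesterol synthesis was the enzyme pathway with the most shifted genes among the lists. Of its 18 measured genes, 8 had risen on day 4 and none had fallen, with a median change of 0.88. The day 4 count was 0 without the first day 4 triadimefon array and 3 without the second one or without the second or the third day 4 control, and 0 in a fit of the 12 arrays alone. On day 30 none had risen or fallen by the limma test, and the median was -0.31. At an unadjusted p under 0.05, 1 of the 18 differed on day 30 and 14 on day 4. The shift was called in 5, all downward, with a median of -1.13, beside -0.01 over all genes tested. The list's median shift was -1.39 with the deposited values and -1.25 with median centring. As single genes, 17 of the 18 shifts were negative, and Ggps1, which makes the longer isoprenoid GGPP and lies on a side branch, was at 0.31.

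The list's mean over its 18 genes was 9.84, 9.40 and 9.53 in day 4 controls and 10.56, 10.67 and 10.17 in day 4 triadimefon livers. On day 30 it was 10.06, 10.04 and 10.45 in controls and 9.76, 9.66 and 10.34 with triadimefon. The groups were apart on day 4 and overlapped on day 30, where the third array of each group was the highest. Between the days 4 genes rose in the controls (Mvk, Sqle, Tm7sf2 and Msmo1) and 2 fell in the treated livers (Fdft1 and Idi1).

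The upstream sequences of the called pathway genes are shown with their CCAAT boxes in capitals, since CCAAT is the letters that NF-Y binds beside SREBP2. For Msmo1 the capitals also mark a match to TCACNCCA, the core of a sterol element. Only exact matches to these letters were searched for, so a sterol element with other letters would stay in lower case. The sequences are the bases before the start site in RefSeq, build GRCm38.p6, 5′ to 3′ on the strand given. Mvk and Mmab start back to back with 241 bases between them, and 1 sequence serves both. Sqle is the other called gene.
Mvk and Mmab, chr5:114444028-114444268, plus strand of Mvk: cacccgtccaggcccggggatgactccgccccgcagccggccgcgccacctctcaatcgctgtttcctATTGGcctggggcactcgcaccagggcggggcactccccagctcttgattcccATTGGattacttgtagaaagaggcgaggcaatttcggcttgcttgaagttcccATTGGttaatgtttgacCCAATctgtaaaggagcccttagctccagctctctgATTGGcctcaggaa
Idi1, chr13:8885356-8885605, plus strand: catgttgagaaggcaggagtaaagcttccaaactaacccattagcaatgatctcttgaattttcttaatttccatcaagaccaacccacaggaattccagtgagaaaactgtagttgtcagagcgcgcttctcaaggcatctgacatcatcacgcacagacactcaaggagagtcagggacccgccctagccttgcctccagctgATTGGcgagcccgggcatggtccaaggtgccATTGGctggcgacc
Cyp51, chr5:4104698-4104947, minus strand: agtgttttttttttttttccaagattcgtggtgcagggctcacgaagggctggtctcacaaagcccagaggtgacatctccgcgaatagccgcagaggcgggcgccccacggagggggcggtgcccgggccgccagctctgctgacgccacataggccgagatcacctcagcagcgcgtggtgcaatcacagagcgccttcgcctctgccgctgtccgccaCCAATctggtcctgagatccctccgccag
Msmo1, chr8:64733579-64733828, minus strand: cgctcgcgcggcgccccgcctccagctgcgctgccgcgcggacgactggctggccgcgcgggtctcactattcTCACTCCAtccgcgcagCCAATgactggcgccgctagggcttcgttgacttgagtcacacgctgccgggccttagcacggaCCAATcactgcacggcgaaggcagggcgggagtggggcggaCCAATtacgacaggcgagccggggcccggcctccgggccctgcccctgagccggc
On both strands, CCAAT (read as ATTGG on the other strand) was found 5 times between Mvk and Mmab, 2 times before Idi1, 1 time before Cyp51 and 3 times before Msmo1. It was present in the 250 bases before the start of 15 of 19 promoters that 16 of the 21 listed genes have in the table (78.9%), and in 33.8% of all 32851 promoters. TCACNCCA was in 2 of the 19 (10.5%) and in 3.67% of all. The motifs did not overlap where both were found before Msmo1, and a match is a description of the letters, not a site.

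Mvk, mevalonate kinase, phosphorylates the product of the rate-limiting step. It was at 6.08, 4.00 and 7.18 in day 4 controls and 8.85, 8.30 and 7.59 in day 4 triadimefon livers, against 7.75, 7.49 and 8.28 in day 30 controls and 6.35, 6.30 and 7.49 with triadimefon. On day 4 all treated arrays were above all controls, with 2 of the 3 controls below background. On day 30 the treated arrays were level with the lowest control or below it. The change was 2.49 on day 4 (SE 0.54, limma adjusted p = 0.00784) and -1.12 on day 30 (adjusted p = 0.244). The shift was -3.62 (SE 0.76, adjusted p = 0.0131, 95% interval -5.16 to -2.07). The controls rose by 2.08 (adjusted p = 0.0183), and the treated livers moved by -1.53 (adjusted p = 0.0879). Since the mean of the day 4 controls, 5.76, was itself below background, the sizes of the day 4 change, the control rise and the shift depend on the floor. The shift was -3.09 with a pseudocount of 32, and -2.74 without the second control, which was at the floor.

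Sqle, squalene epoxidase, acts on squalene within the sterol branch. It was at 9.97, 9.21 and 9.36 in day 4 controls and 11.35, 11.13 and 10.40 with triadimefon, then 10.41, 10.66 and 10.84 in day 30 controls and 10.05, 9.98 and 10.98 with triadimefon. The day 4 groups were apart, and on day 30 the third treated array was the highest of the 6. Its shift was -1.75 (SE 0.43, limma adjusted p = 0.0336).

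Idi1, which isomerises isopentenyl diphosphate, read 10.68, 10.46 and 10.12 in day 4 controls and 11.67, 11.85 and 11.31 with triadimefon. The day 30 values were 10.81, 10.72 and 11.25 in controls and 10.10, 10.17 and 11.09 with triadimefon. Again the groups were apart on day 4 and overlapped on day 30 through the third treated array. The shift was -1.67 (SE 0.40, limma adjusted p = 0.0317), and here the treated livers fell by 1.16 (adjusted p = 0.0109) while the controls moved by 0.51 (adjusted p = 0.331).

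Cyp51, the mammalian form of the conazole target, read 9.94, 9.44 and 9.42 in day 4 controls and 10.42, 10.82 and 10.45 with triadimefon, a rise of 0.96 or 1.95-fold (SE 0.24, limma adjusted p = 0.0227). On day 30 it read 9.85, 10.30 and 10.47 in controls and 9.60, 9.57 and 10.21 with triadimefon, a change of -0.42 (adjusted p = 0.376). The treated arrays were above all controls on day 4 and mixed with them on day 30. The shift was -1.38 (SE 0.35, adjusted p = 0.0385). Msmo1, the next demethylation step, was outside the rule for named genes and was added after its values were seen: its shift was -1.28 (SE 0.33, adjusted p = 0.0393). Lss and Fdft1, the lanosterol and squalene synthases, had risen on day 4 by 1.16 and 0.99, and their shifts of -1.54 and -1.34 were not called.

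Of the 5 calls, only Mvk held when any of the 12 arrays was left out. Sqle, Cyp51 and Msmo1 lost the call without 8 different arrays each and Idi1 without 7, with the highest adjusted p between 0.075 and 0.11 and all shifts staying negative. The list's count fell to 1 without the second or the third day 4 control, the first or the second day 4 triadimefon array, the third day 30 control, or the first or the second day 30 triadimefon array, and reached 6 at most. In the fit of these 12 arrays alone it was 0.

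**Figure D2:**
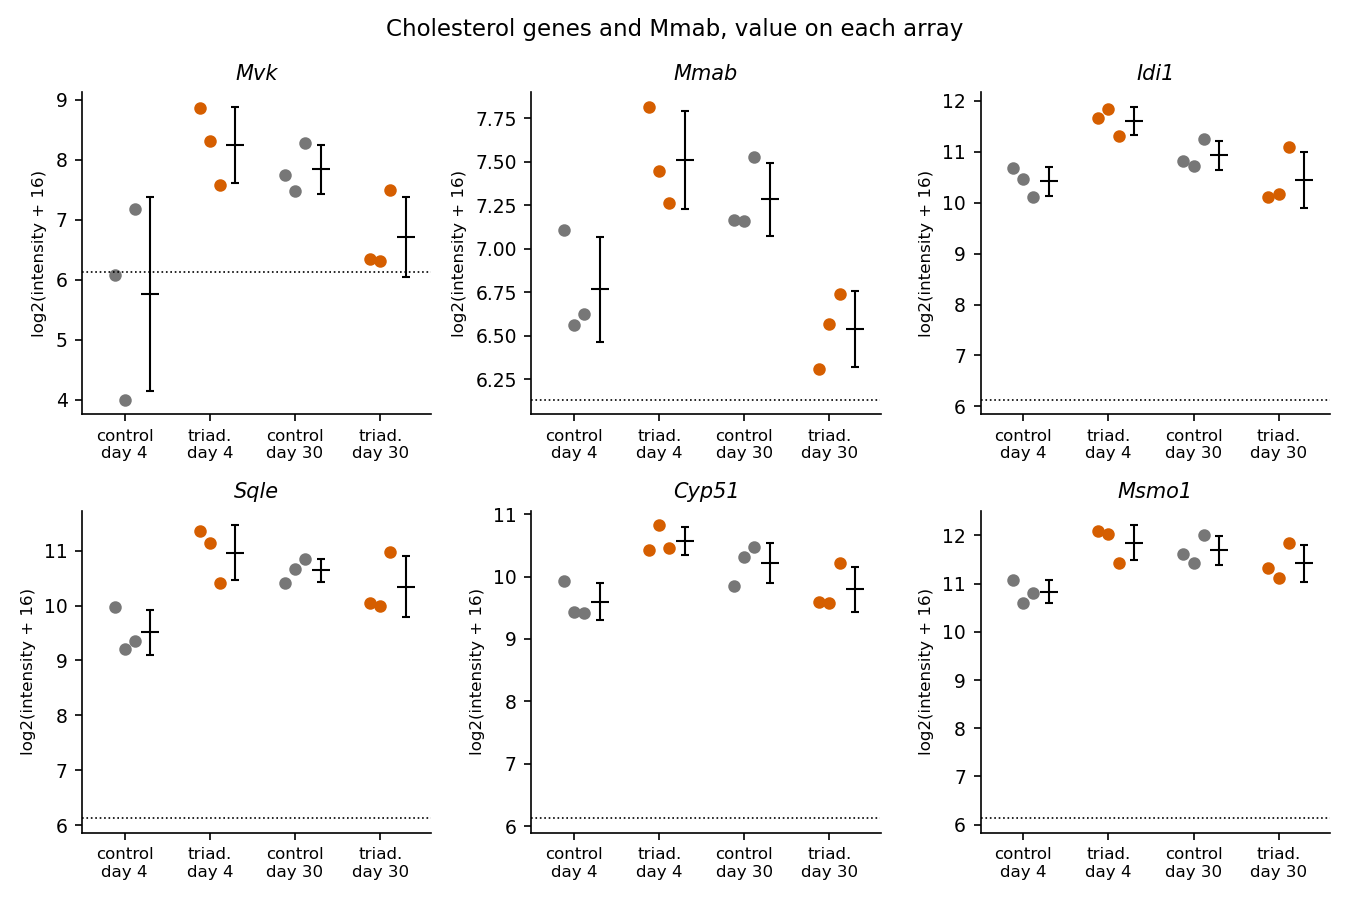
Value on each array, log2(intensity + 16), for 5 cholesterol pathway genes and Mmab in day 4 controls, day 4 triadimefon livers, day 30 controls and day 30 triadimefon livers (3 arrays each), with the mean and SD beside the points. The dotted line is background at 6.13 and each panel has its own axis. Treated points stand above control points on day 4 and mostly level with or below them on day 30.

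Mmab, which makes the cobalamin cofactor of methylmalonyl-CoA mutase and shares its promoter with Mvk, was called on both days in opposite directions. It was at 7.11, 6.56 and 6.62 in day 4 controls and 7.82, 7.45 and 7.26 with triadimefon. Its day 30 values were 7.16, 7.16 and 7.53 in controls and 6.31, 6.57 and 6.74 with triadimefon. The groups did not overlap on either day, with triadimefon above the controls on day 4 and below them on day 30. The change was 0.74 on day 4 (limma adjusted p = 0.0498) and -0.74 on day 30 (adjusted p = 0.0396), and the shift was -1.49 (SE 0.31, adjusted p = 0.0125).

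Among 10 measured genes of SREBP2 control and cholesterol uptake, 1 shifted up and none down. This was Mylip, a ubiquitin ligase known to send the LDL receptor to degradation and to be raised by sterols through LXR. Its values were 8.59, 8.53 and 7.71 in day 4 controls and 6.86, 7.33 and 7.59 with triadimefon, then 8.57, 8.78 and 8.47 in day 30 controls and 8.87, 8.87 and 8.85 with triadimefon. All treated arrays were below the controls on day 4 and above them on day 30. It had fallen by 1.02 on day 4 (limma adjusted p = 0.00437), and its shift was 1.27 (SE 0.28, adjusted p = 0.0205). The call was lost without any of 3 arrays of day 4, at an adjusted p of 0.071 at most.

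Alas1, which makes the first heme precursor, gave the largest early rise that faded. It was at 8.31, 8.15 and 7.83 in day 4 controls and 12.18, 10.84 and 10.98 with triadimefon, then 10.43, 11.85 and 10.20 in day 30 controls and 11.39, 11.12 and 10.75 with triadimefon. The day 4 groups were far apart and the day 30 groups overlapped, with the day 30 controls above all day 4 controls. The change was 3.24 on day 4, or 9.45-fold (SE 0.43, limma adjusted p = 3.96e-05), and 0.26 on day 30 (adjusted p = 0.837). The shift was -2.98 (SE 0.61, adjusted p = 0.0118, 95% interval -4.23 to -1.73), and it was called with any of the 12 arrays left out. The controls rose between days by 2.73 (adjusted p = 0.000232), and the treated livers moved by -0.25 (adjusted p = 0.848). No other of the 13 measured genes for heme supply and P450 partners had a called shift.

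Most drug-metabolising enzymes showed no called shift. Of 19 measured CYP2B, CYP2C and CYP3A genes, 6 had risen on day 4, 7 had risen and 1 had fallen on day 30, and 1 had a called shift. Of 20 glutathione S-transferases, 6 had risen on day 4 and 4 on day 30, and of 16 glucuronosyltransferases and sulfotransferases 5 and 6 had. Neither of these lists held a called shift by limma, with 3 and 0 genes at an unadjusted p under 0.05, and their median shifts were -0.08 and 0.02. With the deposited values or median centring, 1 glucuronosyltransferase or sulfotransferase gene passed on day 30 in place of 6. Single arrays also moved these counts. Leaving out 1 of the 12 gave 2 to 6 transferases of glutathione on day 4 (2 without the second day 4 triadimefon array, 3 without the first one or without the first or the second day 4 control) and 3 or 4 on day 30. For the glucuronosyltransferases and sulfotransferases it gave 1 to 5 on day 4 and 1 to 6 on day 30. The day 4 count was 1 without the first or the second triadimefon array, 2 without the second control, and 3 without the first or the third control. The day 30 count was 1 without the second control or the first triadimefon array, 2 without the second triadimefon array, 3 without the first or the third control, and 4 without the third triadimefon array. The CYP counts stayed at 6 or 7 on both days.

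Cyp2b10, a drug-oxidising enzyme, is the classic CAR target. It was at 8.97, 7.97 and 7.69 in day 4 controls and 12.89, 12.98 and 12.05 with triadimefon, then 6.44, 5.84 and 9.05 in day 30 controls and 12.85, 12.88 and 12.73 with triadimefon. The groups were far apart on both days, and the day 30 controls were spread. It rose 21.6-fold on day 4 (limma adjusted p = 2.44e-07) and 52.3-fold on day 30 (adjusted p = 4.35e-10). The shift of 1.28 was not called (adjusted p = 0.362), and its 95% interval of -0.01 to 2.57 leaves both an equal and a larger change possible. Cyp2c55, an inducible CYP2C enzyme, was 37.8-fold higher on day 4 and 48.6-fold on day 30, with a shift of 0.36 (95% interval -0.55 to 1.28).

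For the held genes, the interval of the shift kept the change on both days within 2-fold of each other. Gstm3, a mu class glutathione S-transferase, was at 11.65, 11.42 and 11.65 in day 4 controls and 13.20, 13.07 and 12.77 with triadimefon, then 11.56, 11.22 and 11.57 in day 30 controls and 13.26, 13.26 and 13.02 with triadimefon. The groups were apart on both days, by 1.44 on day 4 and 1.73 on day 30, with a shift of 0.29 (95% interval -0.15 to 0.73). Cyp2c50, a CYP2C epoxygenase, rose by 0.70 and then 0.65, with a shift of -0.06 (95% interval -0.31 to 0.20). The carboxylesterase Ces2a rose by 0.94 and 0.78, with a shift of -0.16 (-0.40 to 0.08). Abcc3, a pump that exports conjugates to the blood, rose by 0.93 and 1.07, with a shift of 0.14 (-0.31 to 0.60). Ugdh and Papss2, which make the donors for glucuronidation and sulfation, each changed by 0.66 to 0.93 on both days, and were also held. So were Cyp2c54, Gstm2, Gstm4, Ugt2b34 and Ugt2b35.

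Cyp2c65 was the member of the CYP2B, CYP2C and CYP3A list with a called shift, and it grew. This CYP2C monooxygenase was at 4.00, 4.00 and 4.25 in day 4 controls and 7.77, 6.80 and 5.01 with triadimefon, then 4.24, 4.00 and 4.00 in day 30 controls and 9.19, 9.55 and 9.19 with triadimefon. All control arrays were below background, 2 of 3 treated arrays were above it on day 4, and all 3 were on day 30. It was at least 1.31-fold higher on day 4 and at least 9.03-fold higher on day 30. Such a bound sets the bright group's mean against background, or against the dim group's own values where those were higher. Of the 47 named genes with a called shift, 16 had a group below background on all its arrays, and the size of such a shift depends on the floor. The treated livers rose between days by 2.78 (limma adjusted p = 7.22e-05), and the shift was 2.78 (SE 0.58, adjusted p = 0.0124, 95% interval 1.61 to 3.96).

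**Figure D3:**
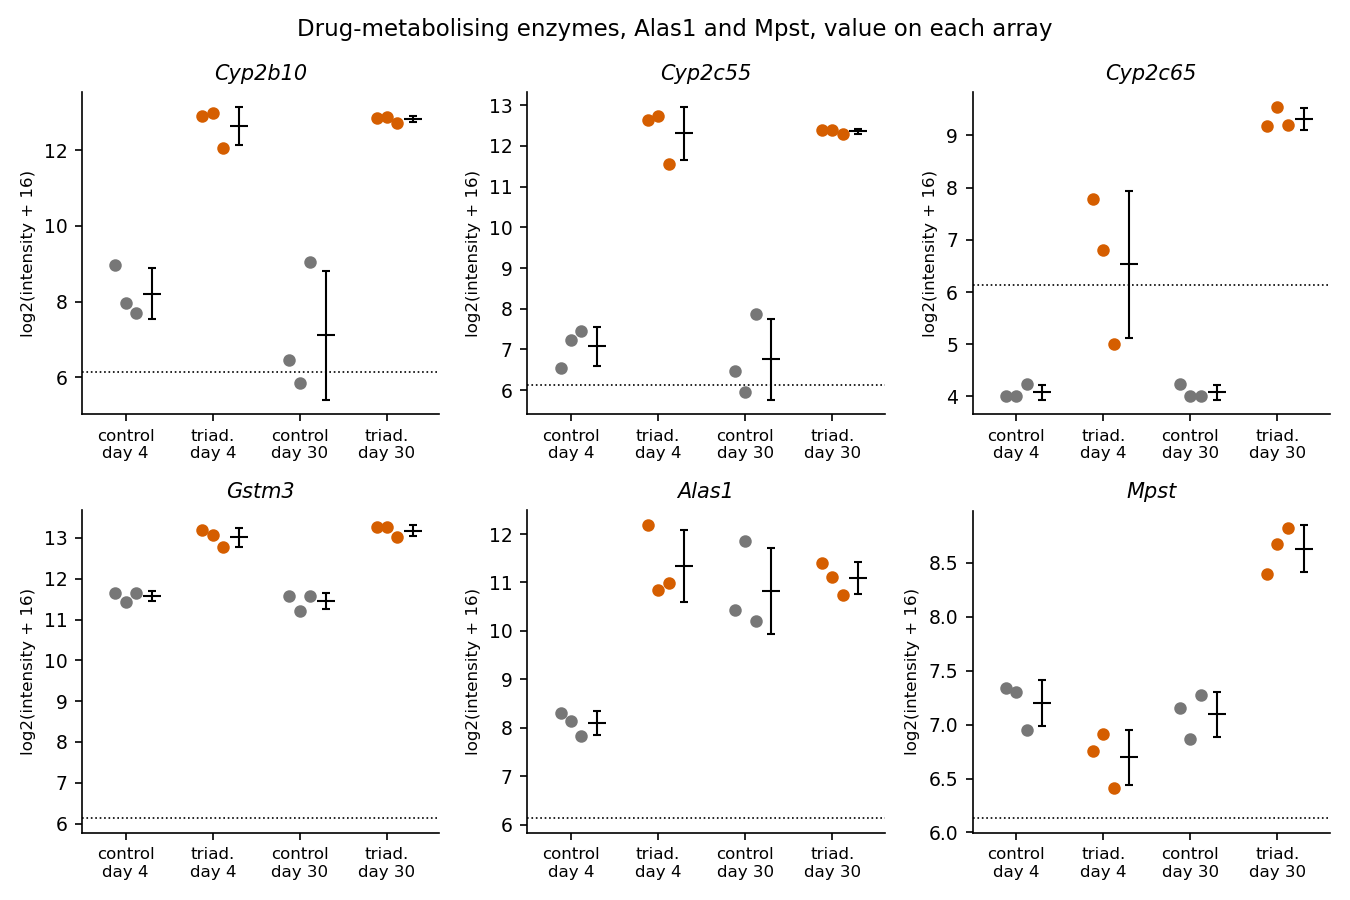
Value on each array, log2(intensity + 16), for Cyp2b10, Cyp2c55, Cyp2c65, Gstm3, Alas1 and Mpst in the 4 groups (3 arrays each), with the mean and SD beside the points. The dotted line is background at 6.13 and each panel has its own axis. Gstm3 keeps its gap between groups on both days, Cyp2c65 and Mpst are highest in day 30 triadimefon livers, and Alas1 controls are higher on day 30 than on day 4.

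**Figure D4:**
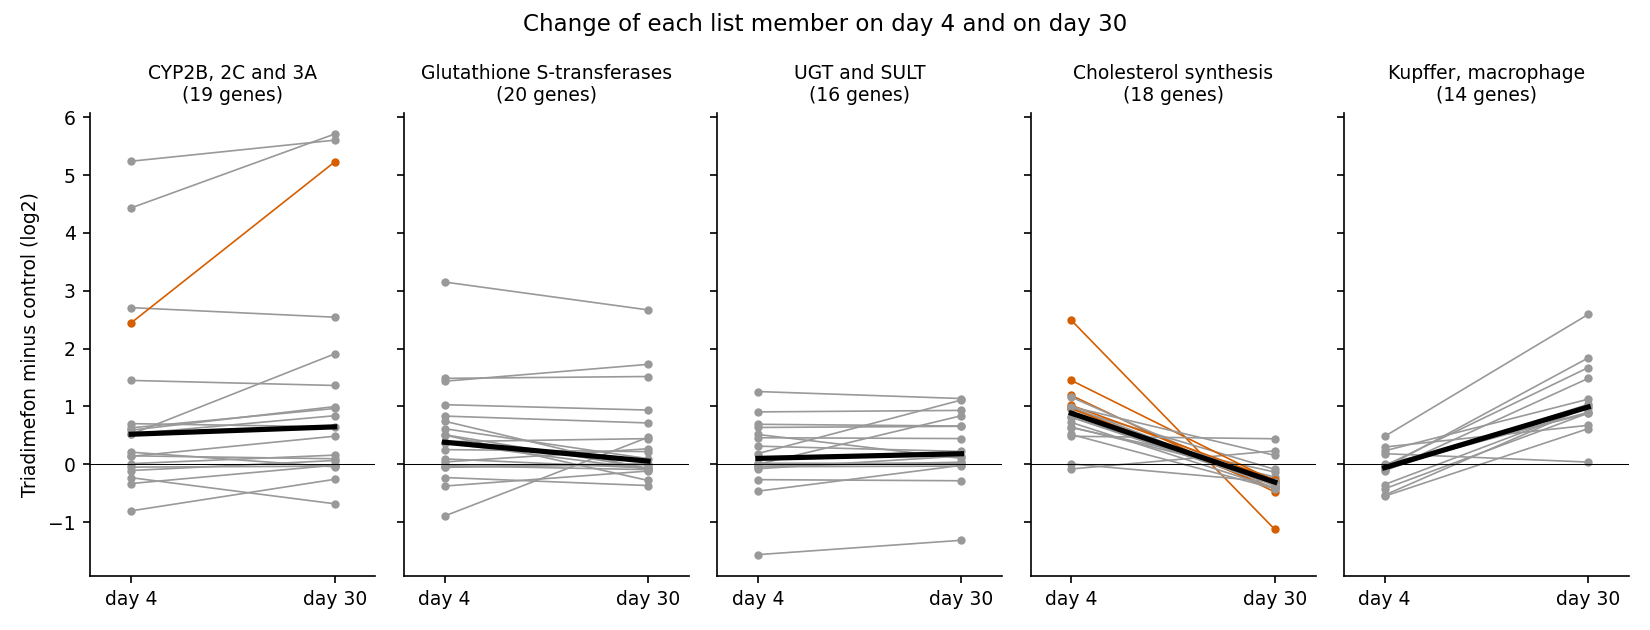
Triadimefon minus control (log2) on day 4 and on day 30 for each member of 5 gene lists, with 1 line per gene, genes with a called shift in orange and the list's median as the thick line. The median of cholesterol synthesis goes from 0.88 to -0.31 and Kupffer cell and macrophage markers from -0.06 to 0.99, while the CYP2B, CYP2C and CYP3A list is at 0.52 and 0.65.

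Of the genes that grew to a rise, Mpst was among those called whichever array was left out. Mpst, a sulfurtransferase of cysteine breakdown, was at 7.34, 7.31 and 6.95 in day 4 controls and 6.76, 6.92 and 6.41 with triadimefon. On day 30 it was at 7.15, 6.86 and 7.27 in controls and 8.40, 8.67 and 8.82 with triadimefon. The treated arrays were the lowest on day 4 and the highest on day 30, with no overlap on either day. Its change was -0.50 on day 4 (limma adjusted p = 0.208) and 1.53 on day 30 (adjusted p = 6.68e-05), and the shift was 2.04 (SE 0.31, adjusted p = 0.00352). It was also called in the fit of these 12 arrays alone.

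Rab5c, a small GTPase of early endosomes, was at 7.92, 7.91 and 7.97 in day 4 controls and 7.64, 7.93 and 7.99 with triadimefon, then 7.65, 7.39 and 8.16 in day 30 controls and 9.34, 9.22 and 9.28 with triadimefon. The first 3 groups overlapped, and the day 30 triadimefon arrays stood above them all. Its shift was 1.63 (SE 0.29, limma adjusted p = 0.00577), with the controls moving by -0.20 and the treated livers rising by 1.43.
Fbxw9, an F-box protein, was called with another pattern: its day 30 controls were at 5.64, 4.00 and 5.59, all below background, and all other arrays between 7.41 and 8.35. Those controls were at least 4.14-fold lower than on day 4 (limma adjusted p = 0.00123), triadimefon was at least 3.23-fold higher on day 30, and the treated livers moved by 0.03 between days. The adjusted p of its shift was 0.0442, and it lost the call without any of 8 arrays, at 0.13 at most.

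Among genes that grew to a fall, Tprn, whose product taperin sits at the base of hair cell stereocilia, was the other named gene called in the fit of these 12 arrays alone. It was at 7.12, 7.03 and 7.11 in day 4 controls and 7.15, 7.25 and 7.21 with triadimefon, then 7.19, 7.51 and 7.49 in day 30 controls and 5.63, 5.49 and 5.41 with triadimefon. The day 30 triadimefon arrays were the only ones below background. Tprn was at least 2.4-fold lower on day 30, and the shift was -2.0 (SE 0.45, limma adjusted p = 0.021).

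Pold2, a subunit of DNA polymerase delta, was at 7.60, 6.83 and 7.02 in day 4 controls and 8.33, 7.93 and 7.28 with triadimefon, then 7.38, 7.50 and 7.70 in day 30 controls and 6.04, 6.54 and 6.65 with triadimefon. The day 30 groups did not overlap, with triadimefon lower. The shift was -1.81 (SE 0.35, limma adjusted p = 0.00768). Atp8a1, a phospholipid flippase, shifted by -1.91 (SE 0.39, adjusted p = 0.0118), in its case with controls that rose by 1.94 and treated livers that moved by 0.03. Its chosen probe set was 1 of 4 among 7 with a negative shift. Armc6 and Necap2 also shifted down (adjusted p = 0.00516 and 0.00743), and were at least 1.52-fold and 1.51-fold lower on day 30, where all triadimefon arrays were below background.

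Early falls faded in 32 genes. Maf, a bZIP transcription factor of the large Maf family, was at 9.53, 9.31 and 9.11 in day 4 controls and 7.87, 8.88 and 8.06 with triadimefon, then 9.26, 9.08 and 9.15 in day 30 controls and 9.59, 9.81 and 9.77 with triadimefon. The treated arrays were all below the controls on day 4 and all above them on day 30. It fell by 1.04 on day 4 (limma adjusted p = 0.00586), and its change on day 30 was 0.56 (adjusted p = 0.128). The shift was 1.60 (SE 0.30, adjusted p = 0.00743), and the same sign was seen in 5 of its 6 probe sets. Here the treated livers rose by 1.45, and the controls moved by -0.15.

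Il1r1, the receptor for interleukin 1, also shifted up. It was at 8.96, 7.33 and 8.07 in day 4 controls and 4.62, 4.75 and 7.13 with triadimefon, then at the floor of 4.00 on all 3 day 30 controls and at 5.53, 4.00 and 7.51 with triadimefon. Only the day 4 controls were above background as a group. The controls were at least 3.96-fold lower on day 30 than on day 4 (limma adjusted p = 5.09e-05). The shift was called (adjusted p = 0.00743), but its size is set by the floor and no value is given here, and 1 of its 2 probe sets had that sign. Foxo1, the transcription factor that insulin restrains, shifted by 1.26 (adjusted p = 0.0356, a call lost without any of 6 arrays), with controls that fell by 1.12 and treated livers that moved by 0.14. In the heat shock list, Hspa4, a cochaperone of the HSP70 family, was the 1 called gene of 14: its rise of 0.52 on day 4 gave way to -0.36 on day 30, with a shift of -0.88 (adjusted p = 0.0192), though the median of its 4 probe sets shifted by 0.18.

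Reversed genes other than Mmab included Slc9b1, a sodium and proton exchanger, Rusc1, a signalling adaptor, and Rbsn, an endosomal tether. All 3 rose on day 4 and fell on day 30, with shifts of -2.30, -1.94 and -1.03 (limma adjusted p = 0.00352, 0.00577 and 0.00577). Slc9b1 was at 5.96, 5.57 and 6.39 in day 4 controls and 7.31, 6.83 and 7.23 with triadimefon, then 7.78, 7.44 and 6.99 in day 30 controls and 6.42, 6.28 and 6.07 with triadimefon. Neither day's groups overlapped, and the order of the groups turned. Its controls rose by 1.43 between days.

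The named genes with a called shift were 47. Leaving out each of the 12 arrays in turn kept the call of 17 of them throughout, and 30 lost it at least once, with an adjusted p of 0.15 at most and no change of sign. The 17 included Mvk, Mmab, Alas1, Cyp2c65, Mpst, Rab5c, Pold2, Atp8a1, Maf and Il1r1. Over all genes the count in these 12 fits ran from 104 without the second day 4 control and 107 without the first day 4 triadimefon array to 320 without the third day 30 control.

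Markers of Kupffer cells and macrophages were higher in day 30 triadimefon livers. None of the 14 measured had changed on day 4 by the limma test (0 at an unadjusted p under 0.05), 6 had risen on day 30, and 12 had risen between days in the treated livers, against none in the controls (4 at an unadjusted p under 0.05). The 6 were Marco, a scavenger receptor (2.59), Mpeg1, a pore-forming protein (1.84), Timd4, a receptor for phosphatidylserine (1.67), C1qc, a complement subunit (1.49), Adgre1, an adhesion receptor (1.13), and Csf1r, the receptor for the macrophage growth factor (0.90). No shift was called by limma, with 9 at an unadjusted p under 0.05: the median shift was 1.24, 13 of the 14 were positive, and Marco was the largest at 2.11. With the deposited values or median centring 3 of the 14 passed on day 30, at medians of 0.94 and 0.93.

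The mean over the 14 markers was 7.42 to 7.78 in day 4 controls, 7.33 to 7.93 in day 4 triadimefon livers and 7.90 to 8.17 in day 30 controls. On day 30 with triadimefon it was 9.93, 8.16 and 9.40, so that the second array was level with the controls. In each group, 1 to 3 of the 14 did not pass background on any of its arrays. Without that second array 9 markers passed on day 30 and 8 had a called shift, and without the first array 1 passed on day 30. It was 2 without the third, 3 without the first or the second day 30 control and 4 without the third, and 0 in a fit of the 12 arrays alone. The 12 that rose between days in the treated livers became 6 to 13 with 1 of the 12 arrays left out, 6 without the first day 30 triadimefon array and 7 without the third one or without the first or the third day 4 triadimefon array. Of 11 sinusoidal endothelial markers, 5 rose between days with triadimefon and 2 in the controls, and 2 were lower on day 4 and 2 higher on day 30. Of all 17728 genes, 410 and 493 rose between days, 292 were lower on day 4 and 427 higher on day 30. None of the 11 had a called shift (4 at an unadjusted p under 0.05 by limma), and 10 of the 11 shifts were positive, with a median of 0.33. With the deposited values and with median centring the median shift was 0.05 and 0.19, beside -0.19 and -0.05 over all genes. Under both scalings 0 of the 11 were higher on day 30. The median change of these markers was -0.34 on day 4, with 9 of the 11 negative, and -0.08 on day 30, with 8 negative. Their mean was 7.51 to 8.14 in day 4 controls, 7.34 to 7.77 in day 4 triadimefon livers, 7.97 to 8.15 in day 30 controls and 8.03 to 8.20 with triadimefon, and 1 of the 11 did not pass background on any array. Cybb, a subunit of the phagocyte oxidase and no member of the list, was called as grown at 1.77 (SE 0.47, adjusted p = 0.0493), a call lost without any of 9 arrays, and its 3 day 30 triadimefon values of 9.04, 7.34 and 8.30 followed the same order. The part of macrophage or endothelial content in the genes that rose by day 30 was not tested.

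**Figure D5:**
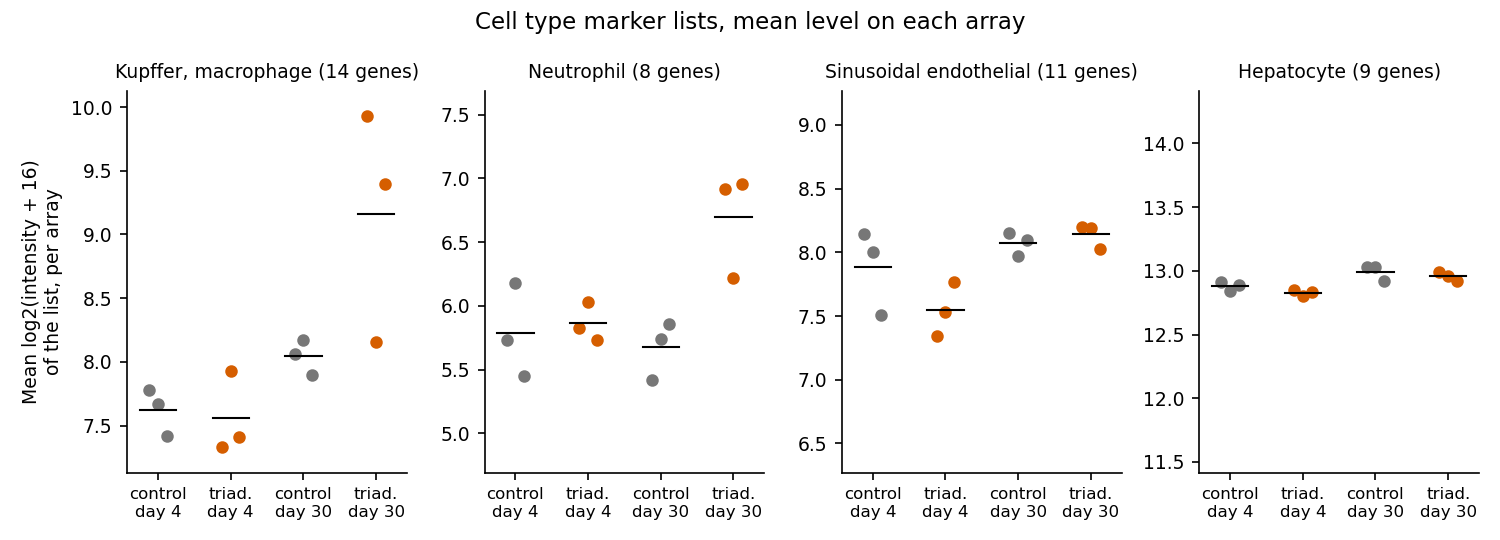
Mean log2(intensity + 16) of 4 cell type marker lists on each of the 12 arrays, by group, with the group mean as a line and an axis of its own for each panel. Kupffer cell and macrophage markers reach 9.93 and 9.40 on the first and the third day 30 triadimefon arrays and 8.16 on the second, and hepatocyte markers stay between 12.8 and 13.03.

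Of 8 measured neutrophil markers, of which 3 had a mean above background, 1 had risen on day 30 and none had changed on day 4 by limma (1 at an unadjusted p under 0.05), with medians of 0.08 and -0.05. The day 30 changes were positive in 4 of the 8 and negative in 4, and the shifts were split in the same numbers. Lcn2, an iron-binding acute phase protein also found in neutrophils, was at 5.18, 4.32 and 4.00 in day 30 controls and 11.66, 8.79 and 12.52 with triadimefon, at least 29.0-fold higher. On day 4 it was at 7.16, 6.44 and 5.08 in controls and 8.90, 7.99 and 5.88 with triadimefon. The groups overlapped on day 4 and were apart on day 30, again with the second treated array lowest. The shift of 5.13 was not called (SE 1.90, limma adjusted p = 0.182). Of 24 acute phase genes 5 had risen and 1 had fallen on day 30, and none had changed on day 4. At an unadjusted p under 0.05 by limma, 5 of the 24 differed on day 4, beside 3226 of all 17728 genes. No shift was called, with 7 of the 24 at an unadjusted p under 0.05 beside 2487 of all 17728, and the median shift was 0.32. The day 30 count of 5 higher genes was 2 with the deposited values, with median centring or without the third triadimefon array of that day, and 9 without the second one. It was 3 without the second day 4 control, the first day 4 triadimefon array, the first or the third day 30 control, or the first day 30 triadimefon array. S100a8, a calcium-binding protein of neutrophils and monocytes, was at least 17.7-fold higher on day 30, with a shift of 4.17 (adjusted p = 0.306).

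Male-biased liver genes, which growth hormone pulses maintain, fell on day 30 in 5 of 14 and on day 4 in 2, with none higher on either day. The day 30 count was 3 with the deposited values, and 3 without the second or the third control or the first or the third triadimefon array of that day. Their median change was -0.45 on day 4 and -0.64 on day 30, and no shift was called (4 at an unadjusted p under 0.05). Susd4, a complement regulator, was the widest at -2.74 on day 30 (limma adjusted p = 0.000479), with controls that rose by 1.77 between days and a shift of -2.04 (adjusted p = 0.107). Slco1a1, an organic anion importer, changed by -0.25 on day 4 and -0.65 on day 30. Of 26 proteasome subunits 5 had risen on day 4 and 1 on day 30, without a called shift (4 at an unadjusted p under 0.05). The day 4 count was 0 without the first or the second day 4 triadimefon array, 1 without the second and 3 without the third day 4 control, 9 without the third day 4 triadimefon array, and 0 in a fit of the 12 arrays alone. With the deposited values 22 passed on day 4, and 2 shifts were called, both down. By limma no shift was called among 32 genes of fatty acid oxidation, 30 of fatty acid and triglyceride synthesis, 15 of bile acid synthesis, 27 of the unfolded protein or integrated stress responses, 35 of the cell cycle or 28 of the respiratory chain. At an unadjusted p under 0.05 these lists held 3, 4, 3, 1, 1 and 6 genes, in the same order, beside 2487 of all 17728. Of the 28 respiratory chain shifts 25 were negative, with a median of -0.13, and 3 of these genes were lower on day 30. With the deposited values, 4 shifts of the respiratory chain and 1 of the unfolded protein list were called. All were down, as were 399 shifts over all genes with those values.

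The other compounds give a reference for the shift. Propiconazole is another triazole conazole and was fed at another dose (2500 ppm), in the same experiment and against the same control arrays, so the control part cancels and the difference of the shifts is between treated arrays alone. That difference was called in 392 genes, 2.21% of those tested, 193 with the higher shift for triadimefon and 199 with the lower, and in 49 of the 232. It includes the propiconazole array that correlated poorly with its group, and without that array the count was 409. Sqle, Cyp51 and Alas1 shifted by -1.74, -1.38 and -2.49 for propiconazole, beside -1.75, -1.38 and -2.98 for triadimefon, and these shifts share the control arrays. The difference was -0.01 for Sqle (SE 0.43), 0.00 for Cyp51 (SE 0.35) and -0.48 for Alas1 (SE 0.61), with limma adjusted p of 0.736 or more.

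Mvk and Mpst differed between the compounds. Mvk shifted by -0.01 with propiconazole, which gave a difference of -3.61 (SE 0.76, limma adjusted p = 0.00957). Mpst shifted by 0.25 with propiconazole, a difference of 1.79 (SE 0.31, adjusted p = 0.00215). For Rab5c and Cyp2c65 the propiconazole shifts were 0.87 and 1.44, and their differences of 0.75 (SE 0.29) and 1.35 (SE 0.58) were not called (adjusted p = 0.165 and 0.211). Phenobarbital, a CAR activator fed at 850 ppm in an experiment with its own controls, gave no gene whose shift differed by the limma test (0% of those tested), with 1707 at an unadjusted p under 0.05. There were 33 with median centring and 45 with the deposited values.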

How the data were processed

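Expression was measured in mouse liver RNA (4 ug, biotin-labelled, 1 array per sample) on Affymetrix whole-genome mouse arrays. The deposited values are linear intensities, 21.15% of them below 0, and the software and scaling the authors used are not given in the sources used here. From these intensities, all 38 arrays were quantile scaled, values below 0 were set to 0, and log2(intensity + 16) of the deposited values was taken. Of 45101 probe sets 34945 name 1 gene symbol, and each gene kept its probe set with the highest mean (18193 genes). Of these, 465 were constant and not tested.

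limma 3.58.1 in R 4.3.3 fitted 1 mean per group to all 38 arrays (28 residual degrees of freedom), with a trend in the prior variance, and p-values were adjusted over 17728 genes. The arrays are single samples, and no depth applies to them. Their number, 3 per group, limits precision. The fit was checked on simulated data in which a gene had the same spread on all arrays, so the check does not cover groups of unequal spread. Named genes were those with the largest shift in each class, up to 8 each way (10 for held genes), up to 4 called genes of each list and up to 4 called on both days, and the 5 largest each way that differed from another compound, with 1 group above background on all 3 arrays. The genes, lists and classes were chosen with earlier results of these data known. Alternatives changed the scaling, pseudocount, filter, probe set rule, arrays in the fit and weights. List counts under these alternatives were added after seeing the data. Symbols matched the reference gene table for 17681 of 17728 genes.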

Additional observations from a re-analysis of the deposited data

Results flagged for a closer look

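The change with triadimefon differed between day 4 and day 30 in 47 named genes by the limma test of the shift itself. The shifts, in log2, were downward in Mvk (-3.62), Inhba (-3.30), Alas1 (-2.98), Armc6 (-2.78), Necap2 (-2.57), Lrrc38 (-2.48), Slc9b1 (-2.30), Hrh2 (-2.08), Tprn (-2.0), Sptbn4 (-1.98), Rusc1 (-1.94), Atp8a1 (-1.91), Pold2 (-1.81), Hdhd5 (-1.80), Shf (-1.79), Sqle (-1.75), Tox2 (-1.71), Idi1 (-1.67), Mmab (-1.49), Gcc1 (-1.45), Cyp51 (-1.38), Rftn1 (-1.17), Ndrg3 (-1.16), Rbsn (-1.03), Lce1a2 (-1.02) and Hspa4 (-0.88).

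Upward shifts were found in Il1r1 (4.30), Neurl4 (3.16), Fbxw9 (3.14), Cyp2c65 (2.78), Zfp385b (2.37), Tmem50b (2.21), Fzd6 (2.17), Mpst (2.04), Cybb (1.77), Ptpn18 (1.66), Rab5c (1.63), Maf (1.60), Retreg3 (1.52), Cux1 (1.40), Rap2b (1.33), Mdk (1.32), Mylip (1.27), Gtpbp2 (1.27), Foxo1 (1.26), Erf (1.12) and Pip4k2a (1.06). Of these 47 genes, 17 kept the call when any of the 12 arrays was left out, and 2, Mpst and Tprn, were called in a fit of the 12 arrays alone. In 16 of the 47 a group was below background on all its arrays, and the size given for those depends on the floor, as for Il1r1 and Fbxw9 (3.39 and 2.61 with a pseudocount of 32).

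The shift of triadimefon differed from that of propiconazole, fed at another dose, in 392 genes, Mpst among them. The 10 given here are the 5 largest each way among genes that met the rule for naming. The difference was higher for triadimefon in Il1r1 (3.93), Usp30 (2.69), Crx (2.63), Wfdc2 (2.43) and Zfp518b (2.43), and lower in Fgfrl1 (-4.56), Inhba (-4.14), Tgm5 (-3.77), Mvk (-3.61) and Slc30a3 (-3.48). For Il1r1 most triadimefon arrays were below background on both days, so the size of its difference depends on the floor. It was 3.01 with the deposited values. Tgm5 lost the call (adjusted p = 0.081) without the second propiconazole array of day 4, and Wfdc2 lost it (adjusted p = 0.051) with the deposited values.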

How the results depend on the processing

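The called shifts kept their sign in every alternative fit that tested them but 1: with the median of all probe sets of a gene, 216 of 232 did. There Hspa4 shifted by 0.18, Retreg3 by -0.02, and Uqcrq changed by 0.37 on day 4. The shift has the same value by design in the fits of 12 or 18 arrays and with the filter or the replicate block. It is also the same without the second propiconazole array of day 4, so its sign could not change in these fits. Counts moved widely. With the deposited values there were 44 upward and 399 downward shifts, 248 faded and 3 held-lower genes, 1674 genes on day 4 and 396 on day 30, and 2727 and 45 genes that differed from propiconazole and phenobarbital. With median centring, 45 shifts were upward, 61 genes grew, 3 held lower, 509 were called on day 30, and 653 and 33 differed from the other compounds. The 12 arrays alone gave 5 upward and 6 downward shifts, 4 faded, 7 grown genes, 7 held higher and 3 held lower, 65 on day 4 and 261 on day 30. The 18 conazole arrays gave 0 and 1 shifts, 0 faded, 1 grown, 7 held higher and 0 held lower, with 19 and 33 genes on the days. Downward shifts were 95 with the median of probe sets and 89 with array weights, where 40 genes faded and 17 held lower. Same-numbered arrays did not deviate together (0 of 18 pairs correlated above 0.1), so the numbers were not read as pairs. A replicate block gave 59 upward and 102 downward shifts, 47 faded and 16 held-lower genes. Leaving out 1 array at a time gave 36 to 236 upward and 65 to 372 downward shifts, 25 to 199 faded and 60 to 304 grown genes, 24 to 92 held higher and 3 to 80 held lower, 216 to 1280 genes on day 4 and 501 to 1709 on day 30. Each upper end came without the second propiconazole array of day 4, where 127 genes differed from phenobarbital and 409 from propiconazole. The causes of these movements were not tested. Of the 232, 159 had a mean above background, and for the rest the size of a shift is set in part by the floor.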

Other observations

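Subunits of the mitochondrial ribosome, grouped by gene name after the values were seen, were lower in day 30 than in day 4 triadimefon livers. Of 76 measured, 28 fell and none rose between the days in the treated arrays by limma, where 3.79% of all genes tested fell, and 3 fell and 3 rose in the controls. Cytosolic ribosome proteins moved the same way in fewer members: 13 of 52 fell and 1 rose in the treated arrays, and 5 fell in the controls. Of all 17728 genes, 450 fell and 493 rose in the controls. Of the 76 mitochondrial proteins, 2 were higher than controls on day 4 and 10 were lower on day 30. The shift was called in 3 of them, all down (Mrpl17, Mrps18b and Mrps27). The median shift of the 76 was -0.28, beside -0.01 over all genes tested. Of the 52 cytosolic proteins, 3 were higher and 1 lower on day 4 and 0 differed on day 30, with 1 called shift, down (Rpl7a). With median centring 61 of the 76 fell in the treated arrays, where 13.9% of all genes did, and with the deposited values 40 did, where 6.94% of all genes did. For the cytosolic proteins these counts were 34 and 30 of 52. In the controls, 13 of the 76 and 16 of the 52 fell with median centring, and 1 and 3 with the deposited values. Less the median of all genes, the control medians of the 76 and the 52 were -0.10 and -0.23 under both scalings.

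eIF2B is the complex that reloads the initiation factor eIF2 with GTP, and has 5 subunits. Also grouped after the values were seen, 3 of the 5 shifted down: Eif2b3, Eif2b4 and Eif2b5, at -0.77, -0.84 and -0.93. Of all 17728 genes, 145 shifted down. In day 30 triadimefon livers 4 of the 5 were lower than on day 4, where 3.79% of all genes tested fell. Since the group was chosen with these values known, its counts are a description and no test. The 3 called subunits were also called with median centring, and all 5 were with the deposited values. When 1 of the 12 arrays was left out, Eif2b3 lost its call without any of 8 arrays and Eif2b4 and Eif2b5 without any of 7 each, with an adjusted p of 0.12, 0.094 and 0.10 at most.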
